A study of Mus musculus with 42 samples.

Results

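Chemokines and their receptors were followed through lung, liver and forestomach of mice dosed with benzo(k)fluoranthene (BkF). The members were all array probes whose gene symbol begins with Ccl or Cxcl and a number, or consists of Ccr or Cxcr and a number. The rule found 59 of 55681 probes, which represent 50 of 20018 named genes, 34 ligands and 16 receptors. The receptors and ligands with other names (Cx3cl1, Cx3cr1, Xcl1, the platelet chemokines Pf4 and Ppbp, and the atypical receptors) lie outside the rule and are used below as a separate list. The animals were male Muta™Mouse of about 11 weeks, a transgenic strain that carries lacZ reporter copies for mutation assays in all groups, controls included. They received olive oil alone (D0, vehicle, 0 mg/kg-bw/day) or BkF, a polycyclic aromatic hydrocarbon, in olive oil at 25 (D1, low), 50 (D2, medium) or 100 mg/kg-bw/day (D3, high) by oral gavage for 28 days, and organs were collected 72 hours after dosing ended. The 42 two-colour arrays came from 15 mice, with 4, 3, 4 and 4 lungs, 4, 2, 3 and 4 livers and 4, 3, 4 and 3 forestomachs in D0 to D3. Each value below is a log2 ratio of tissue RNA (Cy5) over a reference RNA pooled from mouse cell lines (Cy3), with the SD over mice, so it compares a gene between arrays and not with another gene.

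Chemokines are small secreted proteins that set up gradients along which leukocytes move, and their receptors are G-protein-coupled proteins on the leukocyte surface. Some ligands, such as Ccl21, Ccl19, Cxcl12 and Cxcl13, are made continuously and place lymphocytes and dendritic cells in tissue, whereas others, such as Cxcl1, Ccl2, Cxcl9 and Cxcl10, are induced by inflammatory cytokines or interferon. Barrier epithelia make a further set that includes Cxcl14, Cxcl16, Cxcl17 and the lung ligand Cxcl15.

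Of the tissue markers, 5 of 5 lung markers were kept in lung, 5 of 5 liver markers in liver and 6 of 6 squamous markers in forestomach. These counts alone do not separate the tissues. Liver also kept 6 of 6 squamous markers, lung 5 of 6, and forestomach 5 of 5 liver markers. Of the lung markers, 1 of 5 was kept in liver and 2 of 5 in forestomach. Several samples stood apart. The lung of medium-dose mouse 12 had a skeletal muscle score of 5.33, against at most 0.36 in the other lungs, a monocyte and macrophage score of 2.02, against at most 0.16, and a squamous epithelium score of 3.59, against at most 0.13. A score here is the mean over the measured markers of a list, kept or not, of the difference from the tissue median, in log2 units. Of the 6 skeletal muscle markers, 4 were kept in lung and 2 in liver. The lung of low-dose mouse 7 had a glandular stomach score of 3.61, against at most 0.91 in the other lungs. For liver, high-dose mouse 17 scored 4.00 on skeletal muscle, against at most 0.13 in the other livers, and the liver of medium-dose mouse 12 a Kupffer cell score of -1.58. The liver of medium-dose mouse 13 had a neutrophil score of 1.99, against at most 0.66 in the others. It had 57.6% of probes well above background, against at most 46.4% in the others. The forestomachs fell into 9 arrays with glandular stomach scores of -0.58 to 0.65 and 5 with scores of -4.84 to -3.41. On the slides, dose followed the column of the array with 2 exceptions among 42 arrays, so the effects of dose and of slide column cannot be told apart. The livers had slides and a scanner software version of their own, so liver against another tissue and these 2 cannot be told apart either. To check the dosing, values were read for Cyp1a1, the hydrocarbon-oxidising enzyme induced through the aryl hydrocarbon receptor, which lay between 2.09 and 3.29 in vehicle lungs and between 9.29 and 9.73 in high-dose lungs. In liver it lay between -0.09 and 0.23 in vehicle and between 2.62 and 7.05 in high-dose mice, and in forestomach between -0.39 and 0.60 and between 2.08 and 4.66. At the high dose it passed the threshold in lung (adjusted p = 0.00341 by limma) but not in liver (adjusted p = 0.122 by limma) or forestomach (adjusted p = 1.00 by limma), and 1 of the 2 low-dose livers (mouse 9) lay at -0.02, within the vehicle range.

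Detectable chemokine system genes were counted first. A probe was kept in a tissue where the scanner software called its sample signal well above background on at least 3 arrays. Lung kept 45 probes, liver 36 and forestomach 30, or 39 genes (26 ligands, 13 receptors), 28 genes (19 ligands, 9 receptors) and 25 genes (21 ligands, 4 receptors). The kept probes were 76.3%, 61% and 50.8% of the members, against 58.7%, 47.8% and 45.4% of all probes, which were also kept most often in lung. The 4 receptors kept in forestomach were Ccr2, Ccr8, Cxcr2 and Cxcr6. Of the 50 genes, 20 were kept in all 3 tissues, and 9 were kept in none, namely Ccl1, Ccl20, Ccl22, Ccl26, Ccl28, Ccr1, Ccr4, Cxcl2 and Cxcl3. The 8 genes kept in lung alone were Ccl4, Ccl17, Cxcl5, Cxcl15, Ccr10, Cxcr1, Cxcr4 and Cxcr5, and the 2 kept in liver alone were Ccr3 and Cxcl9. No probe was on exactly 2 or exactly 3 arrays in lung. In liver, Ccl8 and Cxcr2 were kept with 3 arrays each, and Ccl17, Ccl26, Ccr2 and Cxcr5 were lost with 2. In forestomach, a Ccl19 probe and Cxcl13 were kept with 3 arrays each, and Ccl17 and Ccr9 were lost with 2.

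How the vehicle tissues differed was asked next. Between vehicle lung and vehicle liver, 22 of 32 member probes tested passed the threshold (limma, Benjamini-Hochberg adjusted p of at most 0.05 and a change of at least 1.5-fold), 15 higher and 7 lower in lung, where 50.0% of all probes passed. Between lung and forestomach 13 of 30 passed, 8 higher and 5 lower in lung (37.6% of all probes), and between liver and forestomach 14 of 25, 8 higher and 6 lower in liver (44.9% of all probes). These counts include probes that no vehicle forestomach had well above background. They are Cxcl13 in the first pair and the Ccl19 probe A_55_P2099742 in both. In bulk tissue, fewer cells of a type and less RNA per cell cannot be told apart, here and in all results below.

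Of the barrier ligands, Cxcl14, Cxcl15 and Cxcl16 were highest in vehicle lung. Cxcl15, the neutrophil-attracting ligand of lung epithelium, stood at 5.76 ± 0.27 (SD, n = 4) in vehicle lung and its signal in the vehicle livers and forestomachs did not clear background. Its level was at least 205-fold higher in lung than in liver and at least 184-fold higher than in forestomach, bounds that were not tested. Cxcl17, a mucosal ligand, stood at 4.03 ± 0.22 (SD, n = 4) in lung, at least 19.2-fold higher than in liver, but lung did not differ from forestomach past the threshold (1.67, SE 0.93, adjusted p = 0.127 by limma), where 2 of 4 vehicle values lay above all vehicle lungs. Ccl25, a ligand of gut and thymus epithelium, was lower in lung than in liver, with a difference of -0.77 (SE 0.17, adjusted p = 1.16e-04 by limma), and the 3 probes of Ccl27a, a skin ligand, differed by -0.40 to -0.16 without passing. Cxcl14, an epithelial ligand, stood at 3.45 ± 0.27 in lung, 0.83 ± 0.53 in liver and 1.19 ± 0.44 in forestomach (SD, n = 4 each). The difference from lung was 2.62 to liver (SE 0.38, adjusted p = 1.88e-07 by limma) and 2.26 to forestomach (SE 0.38, adjusted p = 5.90e-06 by limma), while liver and forestomach differed by -0.36 (SE 0.38, adjusted p = 0.42 by limma). Cxcl16, the membrane-bound ligand of Cxcr6, was highest in lung and lowest in forestomach, with lung, liver and forestomach at 3.55 ± 0.32, 1.34 ± 0.11 and 0.39 ± 0.49 (SD, n = 4 each), and all 3 pairs passed the threshold, with 2 of 4 vehicle forestomachs well above background.

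Ccl5 (RANTES), a ligand that T and natural killer cells release, showed the largest difference between lung and liver among members tested. Its values in vehicle lungs were 0.18, -0.11, 0.44 and -0.16, in vehicle livers -3.68, -4.10, -4.13 and -4.11, and in vehicle forestomachs -2.63, -3.95, -3.58 and -2.86. All 4 lungs lay above all livers and forestomachs. The difference was 4.09 to liver (SE 0.38, adjusted p = 1.69e-11 by limma), or 17.1-fold, and 3.34 to forestomach (SE 0.38, adjusted p = 6.78e-09 by limma), or 10.1-fold, while liver and forestomach differed by -0.75 (SE 0.38, adjusted p = 0.089 by limma). Among myeloid-attracting ligands the order differed. Ccl9 was highest in liver, with 2.79 ± 0.19 in liver, 0.03 ± 0.20 in lung and -1.11 ± 0.36 in forestomach (SD, n = 4 each). Liver minus forestomach was 3.90 (SE 0.51, adjusted p = 4.00e-08 by limma) and lung minus liver -2.77 (SE 0.51, adjusted p = 1.40e-05 by limma). Cxcl1, the main neutrophil attractant of mouse tissue and a ligand of Cxcr2, was lower in lung than in liver, with a difference of -2.32 (SE 0.45, adjusted p = 2.95e-05 by limma). Cxcl10, a ligand of Cxcr3, differed by -1.33 in the same direction (adjusted p = 0.0045 by limma). Ccl11 (eotaxin), an eosinophil attractant, was higher in forestomach than in lung, 2.12 ± 0.74 against 0.72 ± 0.62 (SD, n = 4 each, adjusted p = 5.30e-04 by limma). Ccl24, another eosinophil attractant, differed by -1.64 between lung and liver without passing the threshold (adjusted p = 0.061 by limma). Its difference between lung and liver passed it when the lung of mouse 12 was left out (adjusted p = 1.79e-05 by limma).

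Some ligands and receptors of lymphocyte homing also differed between the tissues, and others did not. None of the 3 Ccl19 probes passed between lung and liver, with differences of -0.56 to -0.14. Ccl21a differed by 0.23 between lung and forestomach without passing (SE 0.53, adjusted p = 0.73 by limma). Ccl21a and Ccl21b, the ligands of Ccr7 in lymphatic vessels and lymphoid tissue, were lower in vehicle liver than in lung and forestomach. With the scanner software's ratio, liver minus forestomach of Ccl21a moved from -2.15 to -0.067 and lost the call (adjusted p = 0.943 by limma). Ccl21b stood at 3.09 ± 0.15 in lung, 0.30 ± 0.30 in liver and 2.20 ± 0.12 in forestomach (SD, n = 4 each), and the difference of lung from liver was 2.79 (SE 0.39, adjusted p = 1.39e-07 by limma). Genes of the Ccl21 family have near-identical copies, so the probes cannot be assigned to a single copy. Ccr7 itself stood at 2.98 ± 0.71 in lung and -0.18 ± 0.15 in liver (SD, n = 4 each; adjusted p = 1.58e-11 by limma), where 1 of 4 vehicle livers was well above background, and it was at least 7.32-fold higher in lung than in forestomach. Ccr6, the receptor of Ccl20, exceeded liver by 2.90 (SE 0.33, adjusted p = 1.56e-09 by limma), where it too was well above background in 1 of 4 vehicle livers, and forestomach by at least 5.47-fold. Cxcr5, the receptor of Cxcl13 on B cells, was at least 4.33-fold higher in lung than in liver and at least 3.91-fold higher than in forestomach. Ccr2, the monocyte receptor of Ccl2, exceeded forestomach by 2.28 (SE 0.31, adjusted p = 1.96e-07 by limma), with 1 of 4 vehicle forestomachs well above background, and liver by at least 3.63-fold. Bounds were not tested, and a difference from a group mostly at background is set by that background. Cxcl12, the ligand of Cxcr4, gave opposite answers by probe. Its brighter probe was 3.85 higher in lung than in forestomach (SE 0.34, adjusted p = 2.48e-11 by limma), and its second probe differed by -1.07 (SE 0.21, adjusted p = 6.76e-05 by limma).

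**Figure D1:**
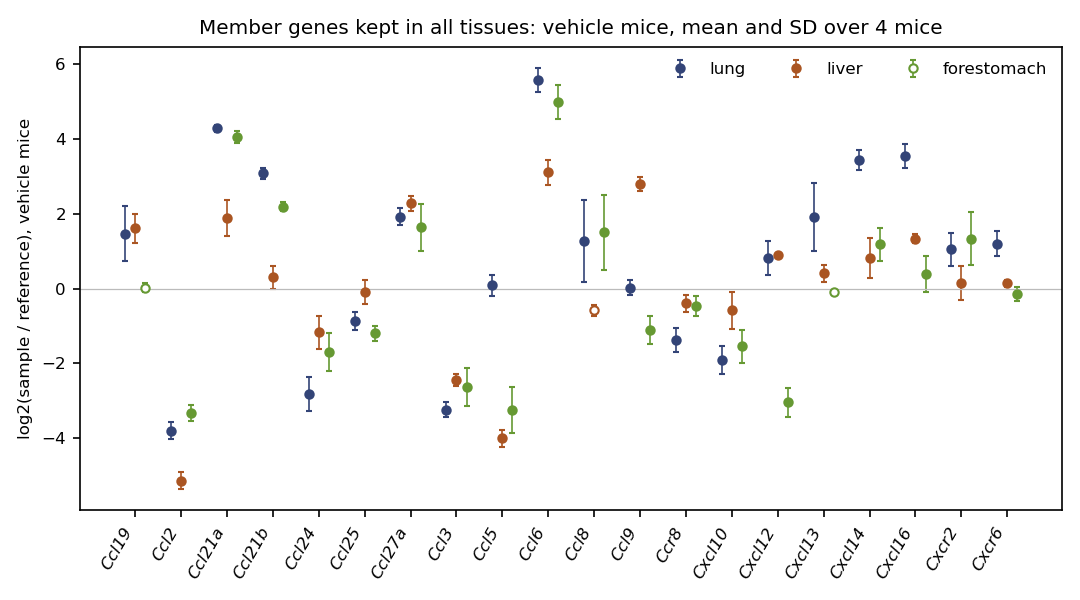
Vehicle level (log2 sample over reference, mean ± SD over 4 mice) of the 20 genes kept in all 3 tissues, by the main probe of lung in every tissue, with open symbols where no vehicle array was well above background. Ccl5 lies near 0 in lung and near -4 in liver, Ccl9 is highest in liver, and Ccl21a and Ccl21b are lowest in liver.

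Whether BkF changed these genes was asked in lung. No member probe passed the threshold at the low dose (0 of 45, where 0% of all probes passed), the medium dose (0 of 45, 0.0153% of all probes), the high dose (0 of 45, 0.0336%) or in the trend with dose (0 of 45, 0.0336%). At an unadjusted p under 0.05, limma gave 1, 6 and 4 member probes at the 3 doses and 4 in the trend, where 1.76%, 4.25%, 8.02% and 8.48% of all probes reached it. The lung fit therefore named no chemokine gene past the threshold, and the values below include the largest differences and the genes of a fixed list.

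Ccl5 (probe A_52_P638459) was lower in every dosed lung than in every vehicle lung. Against 0.18, -0.11, 0.44 and -0.16 in the vehicle lungs, the low-dose lungs had -1.62, -0.63 and -1.29, the medium-dose lungs -1.15, -2.90, -1.35 and -0.80, and the high-dose lungs -1.87, -1.88, -0.76 and -1.20. The groups did not overlap at any dose, but the dosed groups overlapped each other. The differences from vehicle were -1.27 (SE 0.42, adjusted p = 1.00 by limma), -1.64 (SE 0.39, adjusted p = 0.52 by limma) and -1.51 (SE 0.39, adjusted p = 0.325 by limma). Within the 4 slides, high-dose lung minus vehicle lung was -1.77, -1.21, -1.04 and -2.04. Without the medium-dose lung of mouse 12, which shares the fit, the high-dose difference of -1.51 passed the threshold (adjusted p = 0.047 by limma). The cytotoxic and natural killer cell markers were read beside Ccl5. All 6 markers of this list were kept, and their score was 0.20 to 1.22 in vehicle lungs, -0.46 to 0.09 at the low dose, -0.62 to 0.31 at the medium dose and -0.45 to 0.25 at the high dose. It overlapped the vehicle range at the medium and high doses. The T-cell score was -0.21 to 0.21 in vehicle lungs and -0.15 to 0.06, -0.58 to 0.17 and -0.05 to 0.22 at the low, medium and high doses. The part of either list in the Ccl5 difference was not tested.

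Other ligands that were lower in dosed lungs did not pass the threshold either. Ccl8, an attractant of monocytes and lymphocytes, had 2.21, 1.03, 2.00 and -0.19 in vehicle lungs and -0.52, 0.08, 0.16 and 0.59 in high-dose lungs, so the groups overlapped through vehicle mouse 4. Its differences were -1.27 at the medium dose (SE 0.43, adjusted p = 1.00 by limma) and -1.18 at the high dose (SE 0.43, adjusted p = 0.479 by limma). Within slides the high-dose difference ranged from -2.73 to 0.78. Ccl21b had 3.19, 3.23, 3.03 and 2.90 in vehicle and 2.43, 2.60, 2.55 and 2.40 in high-dose lungs, with no overlap, and differed by -0.59 (SE 0.21, adjusted p = 0.475 by limma), with -0.76 to -0.48 within slides. It was chosen after its values were seen. Ccl21a, from the same gene family, differed by -0.18 at the high dose and by -0.44 at the medium dose (SE 0.16, adjusted p = 1.00 by limma). Cxcl13, the B-cell attractant, stood at 2.36, 1.09, 2.97 and 1.25 in vehicle lungs and at 0.19, 0.63, 1.66 and 0.32 in high-dose lungs, 2 of which were not well above background. Its difference was -1.22 (SE 0.90, adjusted p = 0.80 by limma).

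Of the receptors, Cxcr2 and Ccr7 had the highest high-dose differences. Cxcr2, through which neutrophils respond to Cxcl1 and Cxcl5, had 0.87, 0.74, 1.70 and 0.87 in vehicle lungs, 2.01, 4.13, 1.53 and 2.53 at the medium dose and 3.1, 1.64, 1.81 and 1.45 at the high dose. The groups overlapped through vehicle mouse 3. The differences were 1.5 at the medium dose (SE 0.48, adjusted p = 0.96 by limma), which was 0.98 without mouse 12, and 0.95 at the high dose (SE 0.48, adjusted p = 0.65 by limma). The neutrophil score moved with it, at -0.84 to -0.37 in vehicle lungs, -0.31 to 0.57 at the low dose, 0.15 to 1.33 at the medium dose and -0.14 to 0.33 at the high dose, with all 8 markers kept. Its part was not tested. Ccr7 had 3.35, 2.46, 3.80 and 2.31 in vehicle and 3.68, 4.35, 4.01 and 3.16 in high-dose lungs, a difference of 0.82 (SE 0.39, adjusted p = 0.63 by limma), with overlap. The lung epithelial ligands had smaller differences. Cxcl15 stood at 5.76 ± 0.27 in vehicle and 5.92 ± 0.16 in high-dose lungs (SD, n = 4 each), with a difference of 0.16 (SE 0.19). Cxcl14 stood at 3.45 ± 0.27 and 3.56 ± 0.21 (SD, n = 4 each), with a difference of 0.11 (SE 0.13), and Cxcl17 differed by 0.37 (SE 0.25). Cxcl10 differed by 0.61 (SE 0.38, adjusted p = 0.73 by limma). Ccl6, Ccl9, Ccl2, Cxcl1, Cxcl5, Ccl19, Ccl24, Ccl25, Cxcl12, Ccr2, Ccr6, Cxcr3, Cxcr4, Cxcr5 and Cxcr6 differed by between -0.50 and 0.55 at the high dose, and Cxcl16 by -0.53 (SE 0.28, adjusted p = 0.67 by limma).

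Groups that did not overlap with vehicle were counted as a description. In lung these were 2, 3 and 2 of 45 member probes in the low-, medium- and high-dose groups, or 4.44%, 6.67% and 4.44%, against 4.08%, 2.33% and 5.28% of all probes. Ccl5 was among them at each dose, joined by Cxcl13 at the low dose, Ccl21a and Ccl21b at the medium dose and Ccl21b at the high dose.

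**Figure D2:**
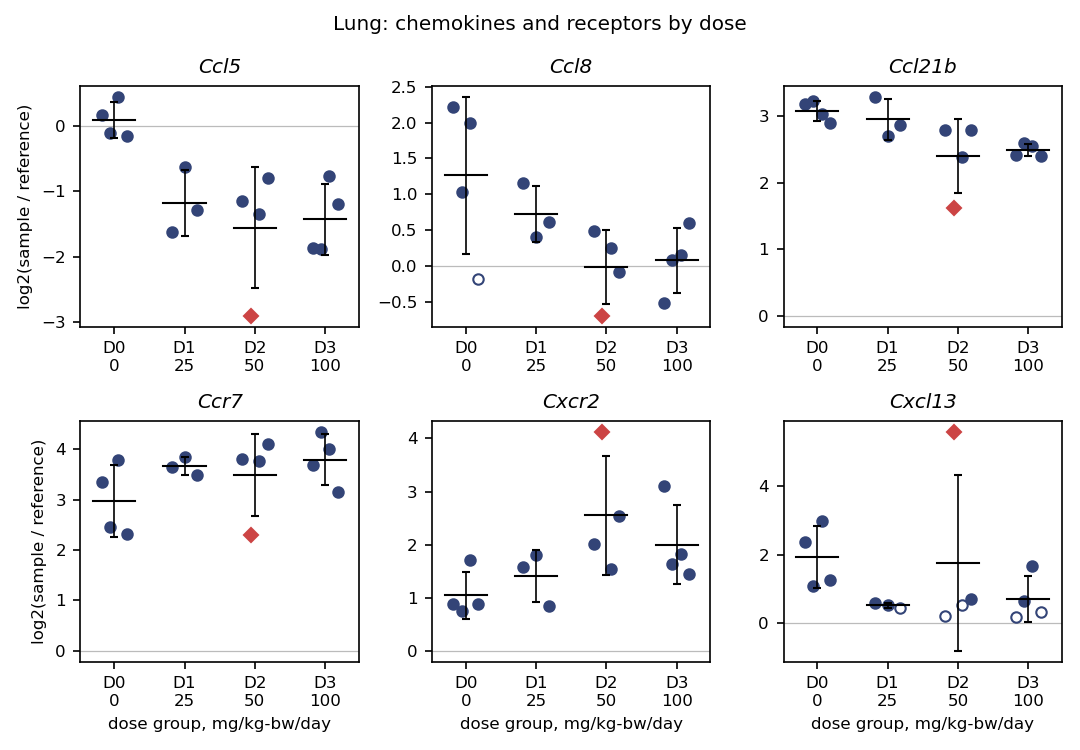
Log2 ratio of sample over reference in each lung for Ccl5, Ccl8, Ccl21b, Ccr7, Cxcr2 and Cxcl13 by dose group (mg/kg-bw/day), with a line at the mean and bars for the SD over mice; the red diamond is medium-dose mouse 12 and open symbols were not well above background. All dosed lungs lie below all vehicle lungs for Ccl5, and mouse 12 lies far above the other lungs for Cxcl13 and Cxcr2.

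The lung of medium-dose mouse 12 carried a chemokine profile unlike the other 14 lungs. In it 22 of 45 member probes lay more than 2-fold from the median of the lungs, or 48.9%, against 7.18% of all probes on the same array. Above all other lungs were 11 member probes and below all others 14. Among the probes above all other lungs, Ccl24 stood at 3.83, where the other lungs ranged from -3.27 to -2.13, Ccl9 at 4.51 (others -0.23 to 0.67), Ccl6 at 6.93 (others 4.84 to 6.09) and Cxcl13 at 5.59 (others 0.19 to 2.97). The receptor Cxcr2, at 4.13 (others 0.74 to 3.1), was also above all others. Below all others were Ccr6 at 0.90 (others 2.08 to 3.80), Ccr7 at 2.29 (others 2.31 to 4.35) and Ccl5 at -2.90 (others -1.88 to 0.44), as well as Ccl8 at -0.70 (others -0.52 to 2.21). Ccr2, Ccl3, Ccl4, Cxcr3 and Cxcr5 lay within the range of the other lungs. The brighter Cxcl12 probe stood at -1.37 (others 0.18 to 1.62). The epithelial ligands Cxcl14, Cxcl15 and Cxcl17, at 3.57, 5.39 and 3.65, lay within the range of the other lungs. The same array had the muscle, macrophage and squamous scores given above, and their part in this profile was not tested.

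The same question was asked in liver. No member probe passed the threshold at the low dose (0 of 36, 0% of all probes), the medium dose (0 of 36, 0.0488% of all probes), the high dose (0 of 36, 0.0601%) or in the trend (0 of 36, 0%). At an unadjusted p under 0.05, limma gave 1, 5 and 7 member probes at the 3 doses and 6 in the trend, where 1.55%, 11.7%, 8.52% and 9.36% of all probes reached it. Some of the 36 probes cleared background mostly in dosed livers, so the direction was read over the 21 member probes well above background on every liver array. Of these 12 had a positive high-dose difference (57.1%), against 47.3% of all probes measured on every array, and the medians were 0.18 and -0.01.

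Cxcl14 and Cxcl9 had the highest differences. Cxcl14, which epithelia secrete at rest and which attracts monocytes and immature dendritic cells, was read by probe A_51_P209183, and Cxcl9, the interferon-gamma-induced ligand of Cxcr3, by 2 probes. The 250 bases before their transcription starts are printed from RefSeq (GRCm38.p6) because polycyclic hydrocarbons are known to activate the aryl hydrocarbon receptor, whose binding core is GCGTG, and because the TATA box (TATAAA) lies before many inducible genes. Capitals mark these motifs on either strand, and Cxcl15, 1 of 4 ligands kept in lung alone, is shown beside them. Cxcl14 lies at chr13:56296552-56296801 on the minus strand, Cxcl9 at chr5:92328080-92328329 on the minus strand and Cxcl15 at chr5:90794284-90794533 on the plus strand.
Cxcl14: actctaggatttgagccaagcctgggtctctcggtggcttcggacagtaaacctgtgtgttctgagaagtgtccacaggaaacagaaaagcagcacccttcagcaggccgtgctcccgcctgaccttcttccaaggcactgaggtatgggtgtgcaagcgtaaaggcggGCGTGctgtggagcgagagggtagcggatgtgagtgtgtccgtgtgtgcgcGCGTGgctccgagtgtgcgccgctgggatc
Cxcl9: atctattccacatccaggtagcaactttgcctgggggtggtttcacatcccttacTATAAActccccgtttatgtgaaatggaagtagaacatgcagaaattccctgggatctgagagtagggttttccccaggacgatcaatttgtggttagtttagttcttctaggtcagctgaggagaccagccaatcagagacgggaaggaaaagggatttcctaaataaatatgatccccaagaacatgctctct
Cxcl15: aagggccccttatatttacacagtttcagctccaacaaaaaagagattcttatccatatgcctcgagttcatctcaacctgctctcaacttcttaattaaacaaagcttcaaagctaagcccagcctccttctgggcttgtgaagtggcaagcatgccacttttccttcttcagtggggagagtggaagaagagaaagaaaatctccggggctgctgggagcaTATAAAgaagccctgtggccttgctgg

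The Cxcl14 window held 2 copies of GCGTG and no TATAAA, whereas the Cxcl9 and Cxcl15 windows held 1 TATAAA each and no GCGTG. Over 40 windows of 36 member genes, 15 (37.5%) held GCGTG and 9 (22.5%) held TATAAA, against 28.2% and 12.4% of all 32851 windows of the same length. A motif like that of NF-kB (GGGA, any pair of bases, then TTCC) was in 6 member windows (15.0%), against 1.21% of all windows, those of Ccl1, Ccr3, Cxcl1, Cxcl2, Cxcl3 and Cxcl10. The motifs were searched on both strands and are matches of letters only, and the shares were not tested.

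Cxcl14 was higher in every dosed liver than in every vehicle liver. The vehicle livers had 0.04, 1.16, 0.98 and 1.12, the low-dose livers 2.66 and 1.44, the medium-dose livers 2.39, 4.13 and 2.38, and the high-dose livers 3.05, 2.34, 2.47 and 2.40. The highest medium-dose value was that of mouse 12, the liver with the low Kupffer cell score. The differences from vehicle were 1.22 (SE 0.49, adjusted p = 1.00 by limma), 2.14 (SE 0.43, adjusted p = 0.113 by limma) and 1.74 (SE 0.40, adjusted p = 0.191 by limma), or 2.34-, 4.41- and 3.34-fold. Within the 2 liver slides the high-dose difference was 2.09 and 1.39. It passed the threshold at the high dose in a fit of the vehicle and high-dose livers alone (adjusted p = 0.031 by limma) and without the medium-dose liver of mouse 12 (adjusted p = 0.036 by limma). At the medium dose it passed without mouse 11 (2.43, adjusted p = 0.046 by limma), which left the medium-dose livers of mice 12 and 13.

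Cxcl9 had 1.25, 1.88, 1.51 and 2.20 in vehicle livers, 1.74 and 1.84 at the low dose, 3.40, 1.41 and 4.16 at the medium dose and 2.15, 3.04, 2.39 and 3.21 at the high dose. The medium-dose group was split, with mouse 12 inside the vehicle range and the other 2 livers above it. The difference was 1.28 at the medium dose (SE 0.50, adjusted p = 0.366 by limma) and 0.99 at the high dose (SE 0.46, adjusted p = 0.592 by limma), and the second probe gave 0.94 and 0.64. Without mouse 12 the medium-dose difference was 2.07 and passed the threshold (adjusted p = 0.039 by limma). That fit left the medium-dose livers of mice 11 and 13, and the 4.16 was mouse 13, the liver with the high neutrophil score. Cxcl10, the other interferon-induced ligand kept in liver, differed by 0.18 at the high dose (SE 0.35), and their receptor Cxcr3, well above background in 1 of 4 vehicle livers, by 0.15. Neither reached an unadjusted p under 0.05.

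Of the 9 homeostatic genes, 6 were kept in liver and 3 (Ccl19, Ccl21b and Cxcl12) were well above background on every array. Of these 3, 2 had a positive difference at the high dose and 1 at the medium dose. Ccl19, a Ccr7 ligand, had 1.44, 1.20, 1.70 and 2.10 in vehicle and 2.27, 2.80, 1.98 and 3.28 in high-dose livers, a difference of 0.97 (SE 0.36, adjusted p = 0.485 by limma). The groups overlapped, and 3 of 4 high-dose livers lay above all vehicle livers. Its 3 probes differed by 0.24 to 0.97. Ccr7 differed by 0.43 (SE 0.20, adjusted p = 0.583 by limma), or 0.27 without high-dose mouse 17, and was well above background in 1 of 4 vehicle livers. Ccl21a, the Ccl21 gene with the widest spread in liver, had 1.16, 4.76, 0.55 and 3.98 in high-dose livers against 2.59, 1.67, 1.83 and 1.5 in vehicle livers, and the 4.76 was mouse 17, the liver with muscle markers. The myeloid ligand Ccl9 was lower in all 4 high-dose livers (2.37, 2.25, 2.40 and 2.45) than in the vehicle livers (3.01, 2.72, 2.57 and 2.88), a difference of -0.43 (SE 0.18, adjusted p = 0.541 by limma), with -0.56 and -0.30 within slides. Cxcl16 was higher in all 4 high-dose livers (1.48 to 2.23) than in the vehicle livers (1.22 to 1.47), a difference of 0.39 (SE 0.20, adjusted p = 0.616 by limma). Ccl2 differed by 0.56 at the medium dose (SE 0.21, adjusted p = 0.350 by limma) and by -0.09 at the high dose.

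Among receptors in liver, Ccr3, the eotaxin receptor, differed by 0.66 at the high dose (SE 0.26, adjusted p = 0.520 by limma), and Ccr8 by -0.32 (SE 0.14, adjusted p = 0.570 by limma). Ccr9, the receptor of Ccl25, was lower in all medium- and high-dose livers than in all vehicle livers. Its difference was -0.44 at the medium dose (SE 0.10, adjusted p = 0.173 by limma) and -0.21 at the high dose (SE 0.09, adjusted p = 0.577 by limma), and it was well above background on 3 of 4 vehicle, 1 of 3 medium-dose and 2 of 4 high-dose arrays. Ccr3 and Ccr9 were chosen after their values were seen. Without overlap with vehicle were 6, 2 and 4 of 36 member probes in the low-, medium- and high-dose groups, or 16.7%, 5.56% and 11.1%, against 11.0%, 9.94% and 6.40% of all probes. The low-dose group held 2 livers.

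**Figure D3:**
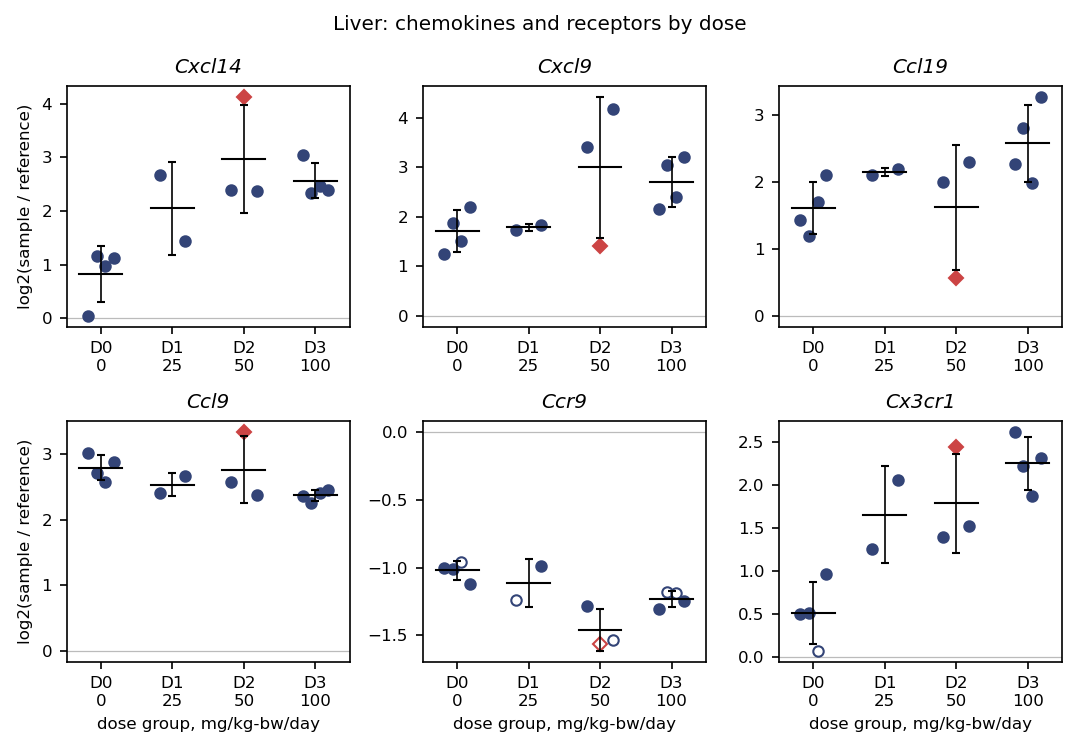
Log2 ratio of sample over reference in each liver for Cxcl14, Cxcl9, Ccl19, Ccl9, Ccr9 and Cx3cr1 by dose group (mg/kg-bw/day), with a line at the mean and bars for the SD over mice; the red diamond is medium-dose mouse 12 and open symbols were not well above background. All dosed livers lie above all vehicle livers for Cxcl14 and Cx3cr1, while mouse 12 departs from its group for Cxcl14, Cxcl9, Ccl19 and Ccl9.

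A list of 45 other genes of the pathway was read with the same fit. It held the other ligands and receptors, the atypical receptors that remove ligand, the signalling proteins behind the receptors, upstream cytokines and adhesion molecules. Of these, 40 were kept in lung, 33 in liver and 25 in forestomach. At the high dose 0, 1 and 0 of them passed the threshold, where 0.0336%, 0.0601% and 0% of all probes passed. The gene that passed was Cx3cr1, the receptor of fractalkine (Cx3cl1) on monocytes and natural killer cells. Its values were 0.50, 0.51, 0.07 and 0.96 in vehicle livers, 1.26 and 2.05 at the low dose, 1.39, 2.44 and 1.52 at the medium dose and 2.62, 2.22, 1.87 and 2.31 at the high dose. It rose by 1.74 at the high dose (SE 0.26, adjusted p = 0.037 by limma), with 1.91 and 1.57 within slides, and all 9 dosed livers lay above all 4 vehicle livers. The call held in 9 of 18 settings and was lost with slides as blocks (adjusted p = 0.071 by limma), with the scanner software's ratio (adjusted p = 0.276 by limma) and when any of the vehicle mice or of high-dose mice 16, 17 or 20 was left out. Its liver difference ranged from 1.59 to 2.68 over these settings. In lung, Cx3cr1 differed by -0.28. In liver 19 list genes were well above background on every array. Of these, 4 had an unadjusted p under 0.05 at the high dose, all higher, among them Ackr2, Gnai2 and Itgal, or 21.1%, against 9.75% of all probes measured on every array. A positive difference was found in 14 of the 19 (73.7%), against 47.3% of those probes. The platelet chemokine Ppbp was well above background in 0 of 4 vehicle and 2 of 4 high-dose livers, at 0.25, 1.43, 0.00 and 0.38 in the latter, of which 1.43 was mouse 17, the liver with muscle markers. In lung at the high dose 18 of 40 were positive (50.9% of all probes), and 5 reached that p (8.02% of all probes). Of these 5, 3 were higher (Ppbp, Ackr3 and Gnai2) and 2 lower (Xcl1, which cleared background in 1 of the 4 lungs at this dose, and Prkcd). At the medium dose 28 of 40 were positive in lung (48.6% of all probes) and 6 reached that p (4.25%). At the low dose 17 were positive (47.6%) and 1 reached it (1.76%). Ackr3, an atypical receptor that takes up Cxcl12, differed by 1.46 in lung (SE 0.39, adjusted p = 0.347 by limma).

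Leukocyte marker scores of the livers were read beside these values, with no test. The monocyte and macrophage score was -0.22 to 0.04 in vehicle livers and -0.08 to 0.75 at the high dose, with overlap (7 of 7 measured markers kept). The Kupffer cell score was -0.05 to 0.51 and -0.29 to 0.22, also with overlap (4 of 4 kept), and the dendritic cell score was -0.27 to -0.15 and 0.04 to 0.27, without overlap (5 of 6 kept, Xcr1 not). Their part in the liver differences was not tested.

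Forestomach was the last tissue. No member probe passed the threshold at the low dose (0 of 30, 0% of all probes), the medium dose (0 of 30, 0%), the high dose (0 of 30, 0%) or in the trend (0 of 30, 0%). At an unadjusted p under 0.05, limma gave 5, 3 and 0 member probes at the 3 doses and 0 in the trend, where 12.1%, 7.59%, 2.20% and 2.81% of all probes reached it.

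Cxcl17 divided the forestomachs into the same groups as the glandular stomach markers. It lay between 2.84 and 5.13 in the 9 arrays with high glandular scores and between -0.28 and 0.13 in the 5 with low scores, where it was not well above background. The first set held 2, 3, 3 and 1 and the second 2, 0, 1 and 2 arrays of D0 to D3, so the low-dose group held no array of the second set. Cxcl17 had 0.10, 5.00, 4.48 and -0.16 in the vehicle forestomachs. Its high-dose difference was -0.85 (SE 1.60), and its spread within groups, an SD of 2.38, was the largest among members in this tissue. Cxcl16 and Cxcl14 averaged 1.27 and 2.07 in the first set and 0.28 and 1.28 in the second, while Ccl6, a ligand of myeloid cells, averaged 3.32 and 5.00 and Ccl8 0.99 and 2.11. The 7 measured markers of glandular stomach were all kept.

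**Figure D4:**
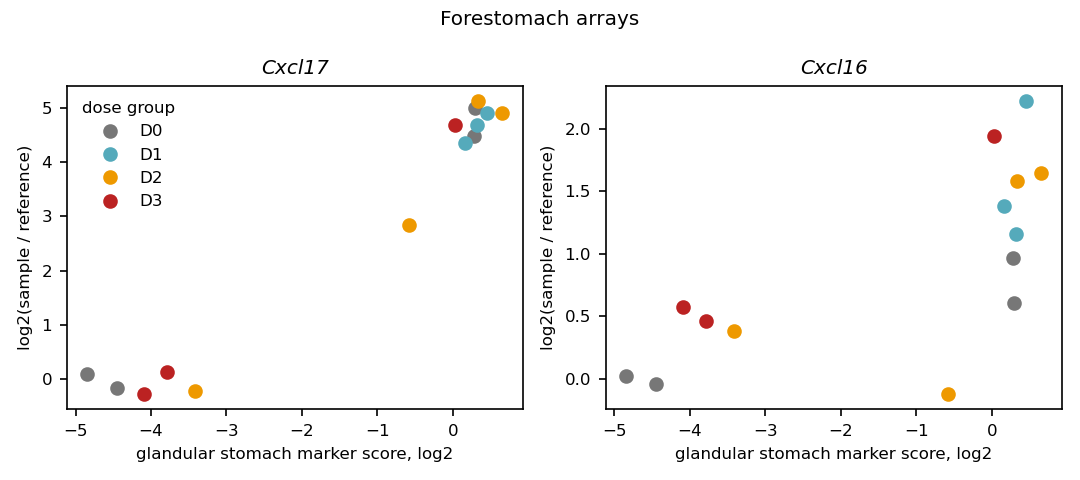
Cxcl17 and Cxcl16 (log2 sample over reference) against the glandular stomach marker score (log2 units from the tissue median) in each of 14 forestomachs, coloured by dose group. Cxcl17 lies above 2.8 in the 9 arrays with high scores and near 0 in the 5 arrays with scores under -3.

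Ccl6 had the largest dose difference in forestomach. Its values were 5.07, 5.57, 4.53 and 4.74 in vehicle, 1.93, 1.57 and 4.00 at the low dose, 4.85, 2.08, 3.03 and 3.78 at the medium dose and 5.57, 3.39 and 4.76 at the high dose. All low-dose values lay below all vehicle values, and the high-dose values overlapped them. The differences were -2.48 (SE 0.70, adjusted p = 0.263 by limma), -1.54 (SE 0.65, adjusted p = 0.618 by limma) and -0.40 (SE 0.70, adjusted p = 1.00 by limma), and the first 2 were -1.96 and -1.25 with the glandular score as a covariate. Cxcl16 and Cxcl14 were higher at the low dose by 1.20 (SE 0.49, adjusted p = 0.370 by limma) and 1.08 (SE 0.49, adjusted p = 0.408 by limma), and with the glandular score as a covariate by 0.61 and 0.66. Cxcr2 was well above background on 4 of 4 vehicle and 0 of 3 low-dose arrays, and was at least 1.67-fold lower at the low dose (adjusted p = 0.344 by limma). The brighter Cxcl12 probe differed by 0.69 at the low dose and the second by -0.33. Cxcl13 was kept through dosed arrays alone, being well above background on 2 of 4 medium-dose, 1 of 3 high-dose and no other forestomach arrays. No dose difference was therefore drawn from it, though the medium-dose count at an unadjusted p under 0.05 includes it. The Ccl19 probe A_55_P2099742 was also kept through dosed arrays alone. Ccl8 had the highest high-dose difference, 0.68 (SE 0.76), carried by a value of 4.29 in mouse 20. Without overlap with vehicle were 6, 1 and 0 of 30 member probes in the low-, medium- and high-dose groups, or 20.0%, 3.33% and 0%, against 14.8%, 3.55% and 2.90% of all probes. The medium-dose probe was that of Cxcl13, kept through dosed arrays alone, so nothing was read from that count.

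Whether the high-dose difference itself differed between tissues was tested in a fit of all 42 arrays. No member probe passed the threshold for lung against liver (0 of 32, 0.0122% of all probes), lung against forestomach (0 of 30, 0.0122%) or liver against forestomach (0 of 25, 0%). At an unadjusted p under 0.05 the counts were 4, 4 and 1, where 5.25%, 4.59% and 3.39% of all probes reached it. Ccl5 differed by -1.75 between lung and liver (SE 0.54, adjusted p = 0.569 by limma) and by -1.51 between lung and forestomach (SE 0.56, adjusted p = 0.947 by limma). In the dosed livers Ccl5 differed from vehicle by 0.23 at the high dose and in forestomach it was -3.25 ± 0.61 in vehicle and -3.25 ± 0.87 in high-dose mice (SD, n = 4 and 3). Cxcl14 differed by -1.63 between lung and liver (SE 0.53, adjusted p = 0.645 by limma) and by 1.14 between liver and forestomach (SE 0.55, adjusted p = 1.00 by limma). Cxcr2 differed by 1.46 (SE 0.59) and Cxcl16 by -1.13 (SE 0.51) between lung and forestomach.

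**Figure D5:**
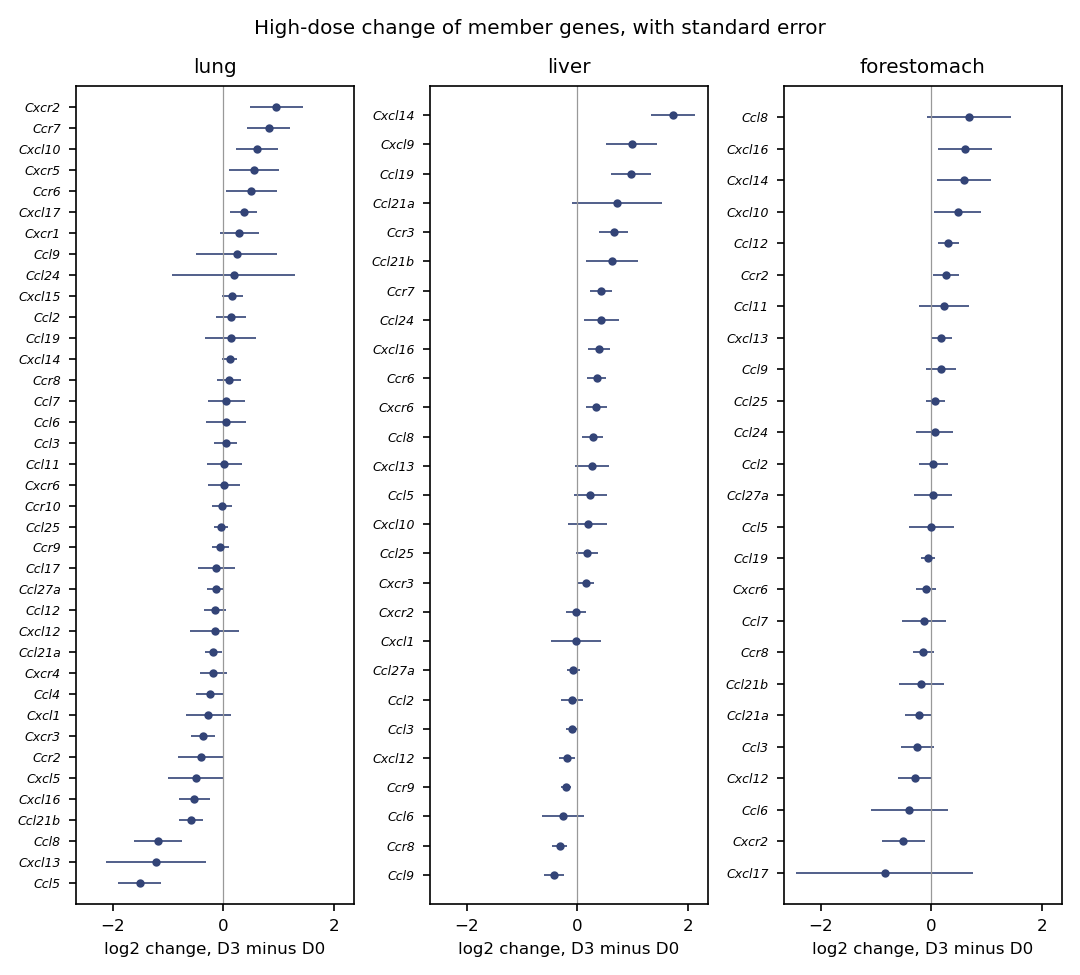
High-dose minus vehicle difference (log2, ± SE of the limma fit) of the kept genes shown, each by its main probe, in lung, liver and forestomach. Ccl5 is lowest in lung at -1.51 and Cxcl14 highest in liver at 1.74, and no member passed the threshold.

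The members varied more between mice of a group than other probes did. The median SD within dose groups was 0.44 for member probes and 0.20 for all probes in lung, 0.32 and 0.19 in liver, and 0.46 and 0.27 in forestomach. Without the lung of mouse 12 the lung medians were 0.35 and 0.19. The widest member in lung was Ccl24 with an SD of 1.81, which was 0.36 without that lung, where Cxcl5 was widest with 0.77. In liver Ccl21a was widest with 1.38, or 1.17 without mouse 17. Whether receptors of lymphocytes and neutrophils followed the markers of their cells was asked over the arrays of a tissue, in 14 relations with permutation tests and adjustment over the 14. In these relations a score was the mean over the kept markers alone, which were 3 for the B-cell list in liver. In lung, Ccr7 followed the B-cell and plasma cell score with r = 0.84 (permutation adjusted p = 6.30e-04) and rho = 0.83 (permutation adjusted p = 0.00175), and Cxcr5 with r = 0.82 (permutation adjusted p = 6.30e-04) and rho = 0.85 (permutation adjusted p = 0.00175). Without the 2 lungs farthest from the median score, r was 0.69 for Ccr7 and 0.81 for Cxcr5. With values centred on slide means, r was 0.83 for Ccr7 (permutation adjusted p = 0.113) and 0.88 for Cxcr5 (permutation adjusted p = 0.044). The Cxcr5 relation did not hold with the scanner software's ratios (r = 0.24). Ccl19 followed the B-cell score with r = 0.67 and rho = 0.71 in lung (permutation adjusted p = 0.017 and 0.018), r being 0.68 without the 2 farthest lungs and 0.66 centred on slides (permutation adjusted p = 0.179). It did not pass either when centred on dose groups (r = 0.67, permutation adjusted p = 0.119) or by the ratios of the scanner software (r = 0.56, permutation adjusted p = 0.080). Cxcr2 followed the neutrophil score in lung with r = 0.67 (permutation adjusted p = 0.017) and rho = 0.61 (permutation adjusted p = 0.065), and Ccr7 the B-cell score in liver with r = 0.73 (permutation adjusted p = 0.017) and rho = 0.55 (permutation adjusted p = 0.121). These last 2 rested on the 2 arrays farthest from the median, without which r was 0.38 and 0.31. Centred on slides they were 0.69 and 0.72 (permutation adjusted p = 0.064 each). The other 9 relations, among them Ccl5 with the T-cell score in lung (r = 0.42, rho = 0.15), did not pass after adjustment. Of these, Cxcl13 with the B-cell score in liver passed in the opposite direction (r = -0.78, permutation adjusted p = 0.031) when the 2 farthest livers, of mice 12 and 17, were left out.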

How the data were processed

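RNA from random sections of lung, liver and forestomach was hybridised by the authors to 2-colour Agilent arrays, each sample in Cy5 against a common mouse cell-line reference in Cy3, with no dye swap. The deposited values, per the file headers, are median spot intensities from Feature Extraction (version 10.7.3.1 for lung and forestomach, 11.0.1.1 for liver), with flags for signals well above background and the software's log10 ratio, already background-subtracted and dye-normalized. The authors' processed table holds log2 ratios. Its lung and forestomach columns correlated with the scanner values at 0.997 to 0.999 and 0.994 to 0.999 and its liver columns at -0.003 to 0.000, so it served as an alternative in lung and forestomach only. Its column medians were -0.043 to -0.002.

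Here log2 ratios of the deposited median intensities were loess-normalized within each array without background subtraction, after the study's methods, with control spots at weight 0, and spots of a probe were averaged, giving 55681 probes. A probe was kept in a tissue with a sample signal well above background on at least 3 arrays. limma 3.58.1 in R 4.3.3 was fitted per tissue over the 4 dose groups, and over all tissues for tissue comparisons, in place of the MAANOVA of the methods. Benjamini-Hochberg adjustment ran over all probes tested, and a call needed an adjusted p of at most 0.05 and 1.5-fold. A gene was represented by its brightest kept probe. Genes were named as the 3 highest and 3 lowest high-dose differences per tissue, the 5 highest and 5 lowest per pair of vehicle tissues, any called gene and a fixed list. The members and lists were chosen with earlier results of these data known. Bounds ("at least") set the brighter group against the lowest signal well above background. Relations used permutation tests with 100000 resamples (scipy 1.17.1), two-sided. The mouse number names the same animal in each tissue, and same-mouse deviations correlated at -0.196 to 0.180 (lung and liver), -0.043 to 0.382 (lung and forestomach) and -0.215 to 0.101 (liver and forestomach).

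The share of probes well above background was 40.5 to 59.9% in lung, 38.4 to 57.6% in liver and 28.1 to 46.0% in forestomach. The number of arrays limits the precision. On simulated data at the high dose, limma called 77%, 83% and 50% of 100 probes changed by 2-fold in lung, liver and forestomach, and 100%, 100% and 87% of 100 changed by 4-fold. Both sets were changed at once and drawn from all kept probes, which varied less within groups than the member probes did. These shares therefore do not hold for the members. Alternatives were the software's ratio, normexp, other filters, only the groups compared, slide as a block, mouse as a block and leaving out each mouse. Counts over features measured on every array and the spread without single arrays were added after seeing the data. Normexp used median signals with an offset of 50, because no mean signals were used here. Values of a few genes are not reported here.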

Additional observations from a re-analysis of the deposited data

Results flagged for a closer look

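In 14 of 187 groups of 4 mice, a mouse lay far from the other 3, where chance alone gives about 1 group in 20. The lung of medium-dose mouse 12 accounted for 3 of them, with Ccl24 at 3.83, Ccl9 at 4.51 and Cxcl13 at 5.59. High-dose lung mouse 20 had Ccl19 at 0.595 (others 1.83 to 2.02) and Ccl7 at -3.20. Vehicle lungs held Ccl24 at -2.13 in mouse 4 and Cxcr2 at 1.70 in mouse 3. Vehicle liver mouse 1 had Ccl5 at -3.68 and Cxcl14 at 0.0414, where the other vehicle livers had Cxcl14 at 0.981 to 1.16. In vehicle forestomachs, mouse 1 had Ccl25 at -0.898 and Cxcl14 at 0.537, and mouse 2 had Cxcl12 at -3.61. Medium-dose forestomach mouse 13 had Ccl7 at -2.40 and Cxcl10 at -1.03.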

How the results depend on the processing

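Member probes past the threshold stayed at 0 in every setting run for the low dose, for the trends, for forestomach, for the medium dose in lung and for the tissue differences of the high dose. They ranged from 0 to 1 when single mice were left out at the high dose in lung and at the medium and high doses in liver. A fit of the vehicle and high-dose livers alone gave 1. Among all probes, 34 passed at the high dose in lung without mouse 12. In liver, 46 passed at the high dose without mouse 12, and 46 in the fit of 2 groups. At the medium dose 162 passed without mouse 11 and 27 without mouse 12. Lung against liver gave 20 to 23 with mice left out and 33 with no filter on dim probes. With probes well above background on every array it gave 11 of 15 tested, beside 9374 calls among all probes. Lung against forestomach gave 11 to 16 with mice left out, 22 of 59 with no filter on dim probes and 5 of 12 with every array. Among all probes the last 2 settings gave 11309 and 5818 calls. Liver against forestomach gave 12 to 15, 23 of 59 and 8 of 11, with 12335 and 6697 calls among all probes. Fewer or more probes were tested under these filters, so the counts cannot be set against each other. With mouse as a replicate block the 3 pairs gave 22, 15 and 14, and the high-dose tissue differences 0, 0 and 0, so the block moved no count by over 1.5 times. Ccl3 in lung against forestomach turned from -0.61 to 0.033 with the scanner software's ratio, and the cause was not tested. Without the 2 farthest arrays, r with the B-cell score turned to -0.29 for Ccl19 and -0.78 for Cxcl13 in liver, where it passed (permutation adjusted p = 0.031), and to 0.46 for Cxcl13 in lung, and r of liver Cxcr3 with the T-cell score to -0.16. There liver Ccr7 had 0.31 and lung Cxcr2 0.38. Centred on dose groups, liver Ccr7 had 0.71, lung Ccl19 0.67 and lung Cxcr2 0.37, and none of these passed (permutation adjusted p = 0.121, 0.119 and 0.513). Centred on slides, liver Ccr7 had 0.72, lung Ccl19 0.66, lung Ccr7 0.83 and lung Cxcr2 0.69, and none passed. With the software's ratio, lung Ccl19 had 0.56, Cxcr2 0.54 and Cxcr5 0.24, none of which passed, while liver Ccl5 with 0.77 and Cxcr3 with 0.68 passed. The cause of these moves was not tested. Of the single-gene values under alternatives, 1884 kept their side of the threshold, 22 lost the call, 12 gained it and 1 turned. Few mice per group, dim receptors in liver and forestomach, and dose aligned with slide column limit these comparisons.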
